A study of Mus musculus with 8 samples.

Results

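The immediate early response genes described here are Fos, Fosb, Jun, Junb, Jund, Egr1, Ier2, Nr4a1, Atf3 and Dusp1. They were chosen by symbol, and all 10 were found among the 55385 genes of the deposited table. They were measured in neural stem and progenitor cells taken by flow cytometric sorting from mouse cortex dissociated on postnatal day 7. There were 8 libraries. The 4 iKO libraries came from mice of the genotype Nestin-CreERT2, Ash2lf/f, tdTomato, and the 4 WT libraries from Nestin-CreERT2, tdTomato mice without the floxed Ash2l alleles. Both groups therefore carried the inducible Cre and the reporter, and Cre was limited to cells in which the Nestin promoter of the transgene was active. The series design calls the libraries biological replicates. When and how Cre was induced, the sex of the mice and any pooling of animals were not stated in the labels. The p-values therefore reflect the scatter among these 8 libraries, part of which may be technical. In bulk RNA of this kind, fewer cells of a type and less RNA per cell cannot be told apart.

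Immediate early genes are transcribed within minutes of a stimulus from factors that the cell already holds. MAP kinase and calcium signals act on SRF with its ternary complex partners and on CREB, and new protein synthesis is not needed. Their mRNAs decay fast, and several of their proteins switch the signal off again. In brain tissue they are known as marks of neuronal activity, and also as genes that enzymatic and mechanical dissociation of tissue induces before cells are sorted. Fos and Fosb proteins cannot pair with themselves and bind DNA as dimers with Jun proteins, which together form the factor AP-1.

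In these libraries Fos, Fosb, Nr4a1 and Dusp1 fell by 22.6% to 27.8% in iKO. Atf3 rose by 22.5%. Egr1 was higher by 3.76%, and Jun and Ier2 were lower by less than 6%, changes whose call depended on how the libraries were scaled. Junb and Jund did not pass the test. By limma on log2(TPM + 1), with Benjamini-Hochberg adjustment over all 16413 genes tested and a threshold of 0.05, 2 of the 10 genes rose, 6 fell and 2 did not pass. TPM counts a transcript's share of a library after scaling for transcript length. Over all tested genes 52.6% were called, 20.7% higher and 31.9% lower, so a change as such was common. Among the 3733 tested genes with a mean TPM of at least 50, 71.9% were called. The absolute log2 fold change had a median of 0.20 over the 10 genes and 0.22 over all tested genes.

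The scaling matters for the small changes. Over all genes the middle log2 fold change was -0.06 in TPM as deposited, and 39.3% of the called genes were higher in iKO. With trimmed mean of M values factors 51.1% of called genes were higher, with quantile normalization 49.7% and in the authors' deposited comparison it was 50.6%. Changes near -0.06 in TPM therefore lie at the median of all genes. With trimmed mean factors 3 of the 10 genes were higher (Egr1, Atf3 and Junb) and 4 lower (Fos, Fosb, Nr4a1 and Dusp1), where 26.5% and 25.3% of all genes, 51.8% together, were called. Quantile normalization gave 1 higher and 6 lower of the 10, against 25.4% and 25.8% of all genes, 51.2% together. The authors' deposited comparison called 2 higher and 6 lower of the 10, and 17.1% higher and 16.7% lower of all 29420 genes it tested, 33.9% together. With a length and GC trend removed, 2 of the 10 were higher and 6 lower, against 25.8% and 25.2% of all genes, 50.9% together. The 6 lower genes then held Junb in place of Jun, so the same counts do not stand for the same genes.

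As a check of the labels, the targeted gene Ash2l averaged 17.6 ± 1.33 TPM in WT against 7.13 ± 0.714 TPM in iKO (SD, n = 4), without overlap. Markers of neural stem and progenitor cells were present in every library, 15 of 16 above the filter, and their summed level ran from 4777 to 4868 TPM in WT and from 4047 to 4138 TPM in iKO. That sum leans on Slc1a3, the most abundant of them, which averaged 2039 TPM in WT against 1241 TPM in iKO. Fabp7 went the other way, from 664 to 925 TPM. Of the 15 markers, 3 were called higher and 6 lower, where 20.7% and 31.9% of all tested genes were. Hopx was below the filter. Depth cannot be read from TPM and is unknown.

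The bases just upstream of the start sites are shown for the 4 genes with the clear falls, for Atf3, which rose, and for Junb, which did not pass, because signals to CREB reach these genes through short promoter elements. Sequences are from RefSeq on GRCm38.p6 and cover the 250 bases before the annotated start, 5′ to 3′ on the strand of the gene. The windows are chr12:85473640-85473889 on the plus strand for Fos, chr7:19310046-19310295 on the minus strand for Fosb, chr15:101266596-101266845 on the plus strand for Nr4a1, chr17:26508473-26508722 on the minus strand for Dusp1, chr1:191183334-191183583 on the minus strand for Atf3 and chr8:84978749-84978998 on the minus strand for Junb. Capitals mark the core of the cyclic AMP response element, TGACG, on either strand, where it reads CGTCA on the other one.
Fos: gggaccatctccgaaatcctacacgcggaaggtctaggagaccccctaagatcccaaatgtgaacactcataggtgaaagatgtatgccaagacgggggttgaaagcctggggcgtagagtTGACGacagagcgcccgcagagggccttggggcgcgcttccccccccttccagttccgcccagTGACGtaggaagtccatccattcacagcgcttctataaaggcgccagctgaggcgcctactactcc
Fosb: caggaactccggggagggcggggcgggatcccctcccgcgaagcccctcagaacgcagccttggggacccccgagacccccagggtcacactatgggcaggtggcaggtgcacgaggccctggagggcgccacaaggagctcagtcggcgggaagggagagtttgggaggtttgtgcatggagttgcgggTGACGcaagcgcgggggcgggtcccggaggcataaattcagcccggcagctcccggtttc
Nr4a1: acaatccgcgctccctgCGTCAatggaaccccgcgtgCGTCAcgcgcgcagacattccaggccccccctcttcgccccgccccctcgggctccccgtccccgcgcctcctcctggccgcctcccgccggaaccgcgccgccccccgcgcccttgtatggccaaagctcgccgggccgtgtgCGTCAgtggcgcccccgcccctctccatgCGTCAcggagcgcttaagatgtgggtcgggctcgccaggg
Dusp1: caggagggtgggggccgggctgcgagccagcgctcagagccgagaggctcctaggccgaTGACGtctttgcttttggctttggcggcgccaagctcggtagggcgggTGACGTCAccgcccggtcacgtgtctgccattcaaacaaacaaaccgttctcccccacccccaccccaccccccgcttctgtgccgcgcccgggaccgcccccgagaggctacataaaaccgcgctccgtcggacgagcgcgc
Atf3: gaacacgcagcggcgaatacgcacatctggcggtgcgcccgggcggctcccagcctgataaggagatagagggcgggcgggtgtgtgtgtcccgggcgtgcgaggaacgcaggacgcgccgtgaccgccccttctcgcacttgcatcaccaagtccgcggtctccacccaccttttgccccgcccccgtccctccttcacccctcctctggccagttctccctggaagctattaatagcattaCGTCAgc
Junb: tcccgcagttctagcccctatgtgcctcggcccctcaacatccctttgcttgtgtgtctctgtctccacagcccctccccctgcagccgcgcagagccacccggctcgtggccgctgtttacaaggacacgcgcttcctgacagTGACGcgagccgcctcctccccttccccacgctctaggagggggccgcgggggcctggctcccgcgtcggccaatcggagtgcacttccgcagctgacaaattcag
RefSeq windows were used for 8 of the 10 genes, those above with Jun and Jund; none was used for Egr1 and Ier2. TGACG occurred in 6 of the 8 windows and in 17.8% of all 32851 promoter windows. Nr4a1 held 4 copies, Dusp1 held 3, Fos held 2, and Fosb, Atf3 and Junb held 1 each, so the element was present in genes that fell, in the gene that rose and in Junb. The full palindrome TGACGTCA, which contains 2 overlapping cores, occurred in the Dusp1 window and in 1.55% of all windows. TATAAA stood 33 to 28 bases before the start of Fos and occurred in 12.4% of all windows. The CArG box, which SRF binds, was in none of the 8 windows and in 1.47% of all, and the AP-1 motif TGANTCA was in none of the 8 and in 6.75% of all. A match is a run of letters and not a bound site, and elements outside the 250 bases were not searched.

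Fos (ENSMUSG00000021250.13) encodes the founding partner of AP-1 and was by far the most abundant of the 10 transcripts. Its level in WT replicates 1 to 4 was 7436, 7204, 7306 and 7418 TPM, and in iKO replicates 1 to 4 it was 5276, 5180.2, 5339 and 5404 TPM. The groups were far apart, with the highest iKO library well under the lowest WT library. The log2 fold change was -0.47 (SE 0.0149, limma adjusted p = 5.68e-08) in TPM, -0.40 with trimmed mean factors and -0.40 in the authors' deposited table. Fos ranked between 6 and 7 among all genes by TPM in WT and between 11 and 12 in iKO.

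Fosb (ENSMUSG00000003545.3), the other Fos-type partner, which also gives a short isoform known to build up with repeated stimulation, stood at a much lower level. WT libraries held 134, 138, 143 and 138 TPM and iKO libraries 112, 106, 108 and 101 TPM. All iKO values were below all WT values, at a log2 fold change of -0.37 (SE 0.0353, limma adjusted p = 3.53e-05).

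Of the Jun-type genes, Jun fell by a small amount and Junb and Jund did not pass. Jun (ENSMUSG00000052684.4), whose protein pairs with itself as well as with Fos, stood at 1260.4, 1278, 1269 and 1260.4 TPM in WT and 1203, 1176, 1192 and 1201 TPM in iKO. The groups did not overlap, but the gap was small: the log2 fold change was -0.09 (SE 0.0110, limma adjusted p = 0.000199), next to a median of -0.06 over all genes. With trimmed mean factors it was -0.02 (adjusted p = 0.231), and the call ended. The call also ended with a length and GC trend removed (log2 fold change -0.004, limma adjusted p = 0.774). The authors' deposited table gave -0.04 with an adjusted p of 0.0304.

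Junb (ENSMUSG00000052837.6), a weaker activator than Jun that is induced along with it, stood at 682, 715, 703 and 674 TPM in WT and 703, 675, 704 and 698 TPM in iKO. The libraries of both groups were interleaved. The log2 fold change was 0.00 (95% interval -0.05 to 0.05, limma adjusted p = 0.906), while trimmed mean factors gave 0.07 (adjusted p = 0.0113) and removal of a length and GC trend gave -0.08 (adjusted p = 0.0202). In the GENCODE M21 annotation Junb overlaps Prdx2 on the opposite strand by 351 bases. Prdx2 was at 970.1 to 1002 TPM in WT and 1390.0 to 1425 TPM in iKO. Smart-Seq2 libraries do not mark the strand, so reads in that stretch cannot be assigned to either gene with certainty.

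Jund (ENSMUSG00000071076.6), usually described as the constitutive Jun gene, was listed at only 5.07, 3.33, 5.94 and 3.29 TPM in WT and 4.28, 5.28, 3.99 and 5.35 TPM in iKO. The values of the groups overlapped widely (log2 fold change 0.11, 95% interval -0.28 to 0.49, limma adjusted p = 0.634). The authors' deposited table listed its mean normalized signal as 37.5, against 32345 for Jun. An antisense gene, Gm11175, covers 919 bases of Jund in the same annotation and was listed at 0 to 5.36 TPM, with 0 in 3 of the 8 libraries. The level of Jund is therefore uncertain.

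**Figure D1:**
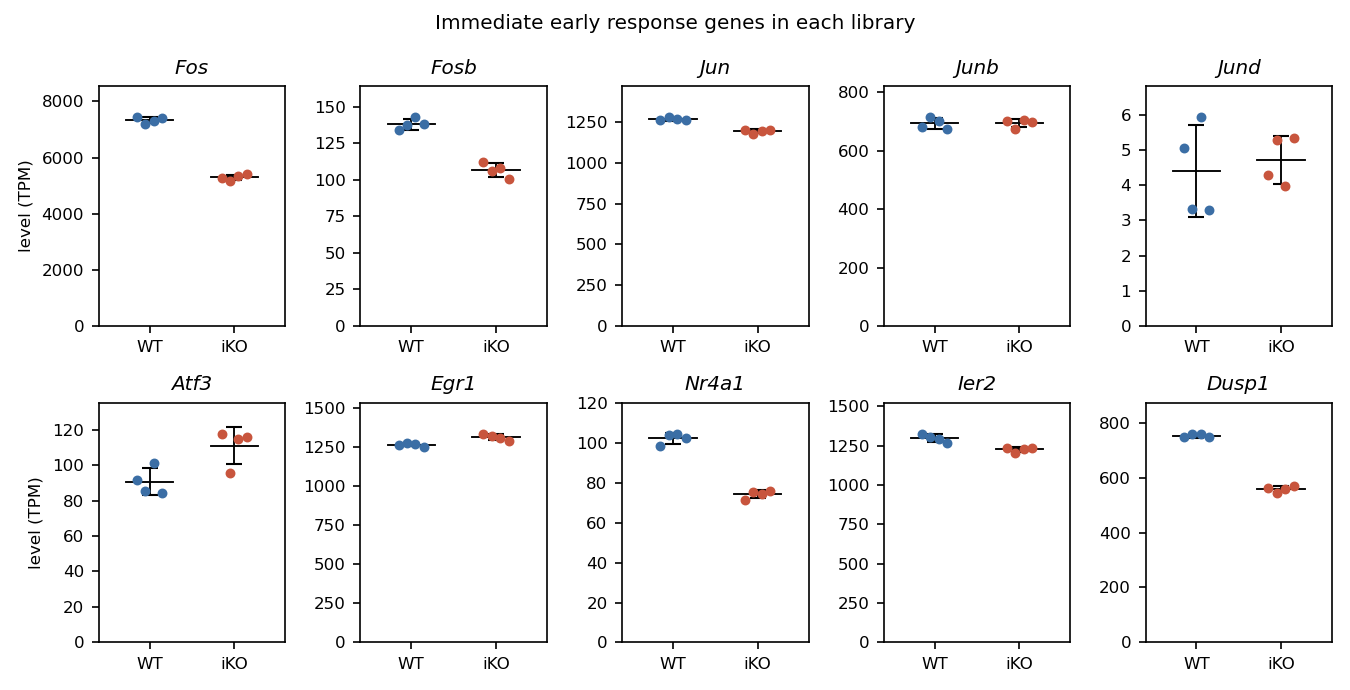
Level in TPM (y axis, from 0, each panel on its own scale) of the 10 genes in 4 WT and 4 iKO libraries; points are libraries, the line is the mean and the bar is the SD. Fos, Fosb, Nr4a1 and Dusp1 show separated groups with iKO lower, while Junb and Jund overlap.

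Atf3 (ENSMUSG00000026628.13) encodes a stress-induced factor of the bZIP class that forms dimers with Jun proteins and often represses. It stood at 91.6, 85.3, 101 and 84.3 TPM in WT and 118, 95.3, 115 and 116 TPM in iKO. Replicates 1, 3 and 4 of iKO were above all WT libraries, and iKO replicate 2 lay inside the WT range. The log2 fold change was 0.29 (SE 0.0788, limma adjusted p = 0.0136), 0.36 without iKO replicate 2 (adjusted p = 0.00195). Leaving out any other library gave 0.26 to 0.34, with adjusted p of at most 0.0385. The authors' deposited table gave 0.28.

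Egr1 (ENSMUSG00000038418.7) encodes a zinc finger activator that is among the earliest targets of MAP kinase signals. It stood at 1263, 1274, 1271 and 1252 TPM in WT and 1335, 1319, 1305 and 1290.1 TPM in iKO. All iKO values were above all WT values, by a small margin. The log2 fold change was 0.05 (SE 0.0129, limma adjusted p = 0.00759) in TPM, 0.12 with trimmed mean factors and 0.12 in the authors' deposited table. With quantile normalization it was 0.03 (adjusted p = 0.138), and the call ended.

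Nr4a1 (ENSMUSG00000023034.7) encodes an orphan nuclear receptor that acts without a known bound hormone. It stood at 98.6, 104, 105 and 103 TPM in WT and 71.6, 75.3, 74.4 and 76.0 TPM in iKO. The groups were clearly apart, at a log2 fold change of -0.46 (SE 0.0299, limma adjusted p = 3.49e-06). The authors' deposited table gave -0.34.

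Ier2 (ENSMUSG00000053560.5) encodes a small nuclear protein of the early response. It stood at 1325, 1306, 1290.5 and 1267 TPM in WT and 1237, 1203, 1227 and 1234 TPM in iKO. The iKO libraries were all lower, but by little: the log2 fold change was -0.08 (SE 0.0159, limma adjusted p = 0.00234). With trimmed mean factors it was -0.01 (adjusted p = 0.606), and with a length and GC trend removed -0.18 (adjusted p = 2.34e-05).

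Dusp1 (ENSMUSG00000024190.7) encodes a nuclear phosphatase that inactivates MAP kinases and so ends the signal that induced it. It stood at 746, 759, 759 and 746 TPM in WT and 561, 543, 560.1 and 569 TPM in iKO. No iKO library came near the WT range. The log2 fold change was -0.43 (SE 0.0166, limma adjusted p = 1.54e-07) in TPM, -0.36 with trimmed mean factors and -0.35 in the authors' deposited table. Dusp1 shares 640 bases with Ergic1 on the opposite strand, and Ergic1 was at 105 to 120.3 TPM in WT and 138 to 156 TPM in iKO, so reads of that stretch are uncertain too.

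**Figure D2:**
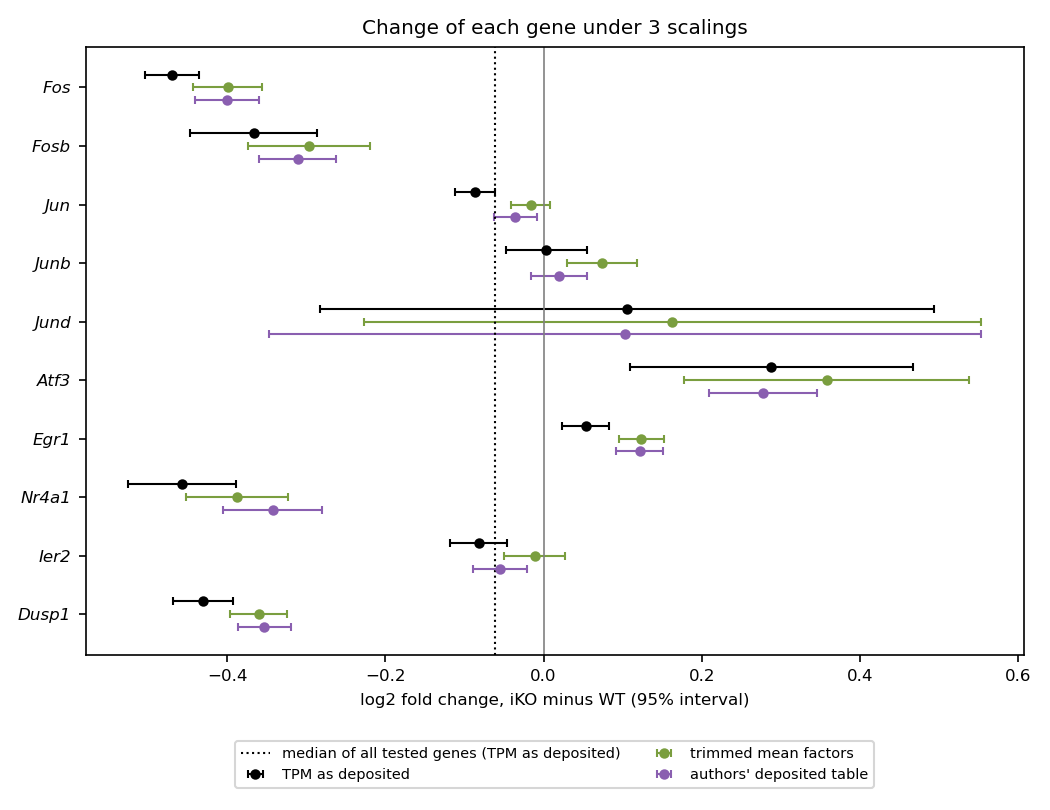
Log2 fold change of iKO minus WT (x axis) for the 10 genes under 3 scalings, with 95% intervals; for the authors' deposited table the interval is a normal one from the deposited SE. Fos, Fosb, Nr4a1 and Dusp1 stay below the dotted median of all tested genes (-0.06) and Atf3 stays above 0 under each, while Jun, Junb and Ier2 lie near 0 and Jund has wide intervals.

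The values of the 2 groups did not overlap for 7 of the 10 genes, 6 with iKO lower and 1 with iKO higher. Among all tested genes 49.2% had groups that did not overlap, 29.9% with iKO lower and 19.2% with iKO higher. The changes rest on a narrow spread. The coefficient of variation of Fos was 1.80% in iKO and 1.47% in WT, that of Jun 1.01% and 0.674%, against a median of 2.99% and 3.34% over the tested genes of mean TPM at least 50. Atf3, at 9.42% and 8.42%, and Jund, at 14.6% and 29.8%, varied more than that median.

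The order of the levels differed between the groups. In WT it ran Fos, Ier2, Jun, Egr1, Dusp1, Junb, Fosb, Nr4a1, Atf3 and Jund. The values of Ier2 and Jun, of Jun and Egr1, and of Nr4a1 and Atf3 overlapped there, so these neighbours were not separated by their spread. In iKO it ran Fos, Egr1, Ier2, Jun, Junb, Dusp1, Atf3, Fosb, Nr4a1 and Jund, and only the neighbours Atf3 and Fosb overlapped. Dusp1 stood above Junb in each WT library and below it in each iKO library.

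Together the 10 genes held 1.304%, 1.287%, 1.295% and 1.295% of all TPM in the WT libraries and 1.062%, 1.038%, 1.063% and 1.069% in the iKO libraries. Most of that gap was Fos itself. Without Fos the summed level was 5528 to 5663 TPM in WT and 5199 to 5345 TPM in iKO, and Fos made up 56.0% to 57.3% of the sum in WT and 49.7% to 50.5% in iKO.

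Ratios of genes within a library do not change when all genes of that library are multiplied by the same factor, as with trimmed mean factors. They do change with quantile normalization and with the length and GC trend removed. The summed Fos-type level (Fos and Fosb) over the summed Jun-type level (Jun, Junb and Jund) was 3.89, 3.68, 3.77 and 3.90 in WT and 2.82, 2.85, 2.87 and 2.89 in iKO. The uncertain Jund added under 6 TPM to the Jun-type sum of any library. The ratio of Fos to Egr1 was 5.65 to 5.92 in WT and 3.93 to 4.19 in iKO. Fos over Jun, which fell by little, was 5.64 to 5.90 in WT and 4.39 to 4.50 in iKO. Dusp1 over Egr1 was 0.591 to 0.597 in WT and 0.412 to 0.441 in iKO. These ratios were lower in every iKO library than in every WT library.

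By contrast, the ratios of Fos to Dusp1, Nr4a1 and Fosb, the other genes with clear falls, were close between the groups. Fos over Dusp1 was 9.49 to 9.96 in WT and 9.40 to 9.54 in iKO. Fos over Nr4a1 was 69.3 to 75.4 in WT and 68.8 to 73.6 in iKO. Fos over Fosb was 51.1 to 55.5 in WT and 47.1 to 53.6 in iKO. In each of these 3 ratios of TPM as deposited the groups overlapped. With quantile normalization the log2 fold changes lay further apart, at -0.56 for Fos and -0.38 for Dusp1, against -0.47 and -0.43 in TPM as deposited. The ratios were chosen after the values were seen and were given no test.

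**Figure D3:**
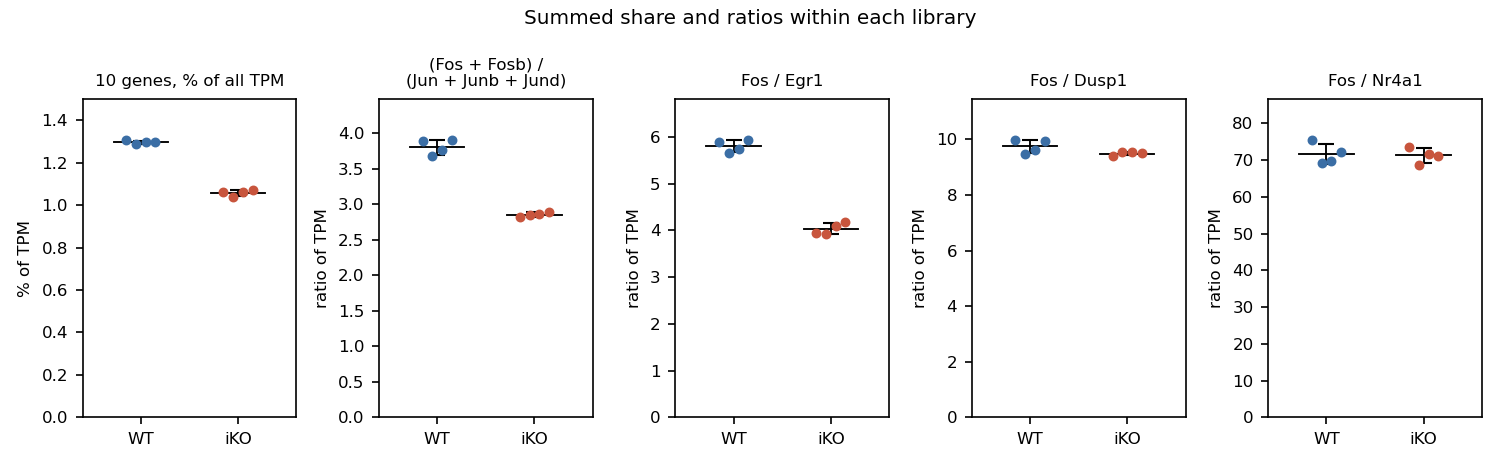
Share of all TPM held by the 10 genes (% of TPM, left) and ratios of TPM between genes (y axes from 0) in 4 WT and 4 iKO libraries, with the mean and SD. The first 3 panels show separated groups with iKO lower, and Fos over Dusp1 and Fos over Nr4a1 overlap.

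Other immediate early and rapid response genes were described from a list of 37, of which 35 were tested; Fosl1 and Cebpb were below the filter. Among these 35, 20 fell, 6 rose and the other 9 were not called. So 74.3% were called, against 52.6% of all tested genes, 20.7% higher and 31.9% lower. Their median log2 fold change was -0.15, against -0.06 over all genes. With trimmed mean factors 7 were higher and 17 lower, at a median of -0.09. Btg2, an antiproliferative gene of neurogenic progenitors, fell from 926 ± 5.85 to 633 ± 5.85 TPM (SD, n = 4; log2 fold change -0.55). Ccn2 and Ccn1, genes of secreted matricellular proteins, fell by 1.30 and 0.37 on the log2 scale. Gadd45g, a stress-induced growth arrest gene, rose from 1122 ± 11.6 to 1424 ± 10.3 TPM (SD, n = 4; log2 fold change 0.34).

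The relatives of the 10 genes were looked at after their values had been seen. Egr1 was higher in iKO, whereas the 3 other Egr genes, which bind like DNA elements, fell: Egr2 from 29.8 to 31.2 TPM in WT to 21.1 to 22.8 TPM in iKO, Egr3 from a mean of 9.31 to 6.40 TPM and Egr4 from 1.51 to 0.924 TPM. Their log2 fold changes were -0.47, -0.48 and -0.38. The fall of Egr4 did not pass in the authors' deposited table (adjusted p = 0.137). Of the other Nr4a receptors, Nr4a2 fell from 7.20 to 4.91 TPM (log2 fold change -0.47), and Nr4a3 averaged 4.91 TPM in WT against 5.15 TPM in iKO (limma adjusted p = 0.726). Fosl2, a Fos relative, averaged 1.16 TPM in WT against 0.937 TPM in iKO and did not pass (limma adjusted p = 0.225). No test of the difference between relatives was made.

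Feedback inhibitors of MAP kinase signalling other than Dusp1 fell more often than they rose. Of 15 tested, 2 rose, 9 fell and 4 did not pass, at a median of -0.21, and trimmed mean factors gave 2 higher and 6 lower. So 73.3% were called, against 52.6% of all tested genes, 20.7% higher and 31.9% lower. Spry2, a receptor tyrosine kinase inhibitor, stood at 27.0 to 28.6 TPM in WT and 16.6 to 17.2 TPM in iKO (log2 fold change -0.68). Dusp6, a phosphatase of the kinase ERK, stood at 85.5 to 89.5 TPM in WT and 69.2 to 71.1 TPM in iKO (log2 fold change -0.30). Spry1 and Dusp10, a phosphatase of stress kinases, each fell by 0.31 on the log2 scale.

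Upstream of the 10 genes, most called kinases were lower and most called factors were higher, a difference that was not tested. Of the kinases 52.6% were called, the same share as over all tested genes, and of the factors 35.3%. Over all tested genes 20.7% were higher and 31.9% lower. Of 19 kinases of the MAP kinase cascade and of the kinases that act on CREB and SRF, 2 rose, 8 fell and 9 did not pass, at a median of -0.15, and with trimmed mean factors 4 were higher and 6 lower. Mapk3, which encodes an ERK kinase, fell by 0.23 on the log2 scale, Map2k1, which encodes a kinase that activates ERK, by 0.26 and Rps6ka1, a kinase activated by ERK, by 1.09. Of 17 SRF, CREB and MEF2 factors and coactivators, 4 rose, 2 fell and 11 did not pass, at a median of 0.09, and with trimmed mean factors 8 were higher and none lower. Srf rose from 22.2, 24.5, 23.1 and 24.5 TPM in WT to 35.9, 35.7, 34.7 and 33.7 TPM in iKO (log2 fold change 0.55, SE 0.0434, limma adjusted p = 1.06e-05). Its coactivator gene Mrtfb rose by 0.33 and the CREB coactivator gene Crtc1 by 0.49, while Atf1, a CREB relative, fell by 0.36 on the log2 scale. The call of Atf1 ended with trimmed mean factors (log2 fold change -0.30, adjusted p = 0.052). The number of factors called fell from 6 to 3 without iKO replicate 1 or WT replicate 4, to 4 without iKO replicate 2 or 3 or WT replicate 3, and was 10 in the authors' deposited table.

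Other bZIP genes whose proteins can pair with those of the 10 had 2 higher, 4 lower and 6 not passing among 12 tested (2 and 3 with trimmed mean factors). Genes of this list were not called more often than all tested genes, of which 52.6% were called, 20.7% higher and 31.9% lower. Batf and Batf2 were below the filter. Nfe2l2, the oxidative stress factor, fell by 0.46 on the log2 scale, Maf by 0.31 and Mafg by 0.18, and Ddit3, a factor of the unfolded protein response, rose by 0.29. The call of Mafg ended with trimmed mean factors (log2 fold change -0.12, adjusted p = 0.0611). Genes of proteins that bind AU-rich mRNA ends or remove poly(A) tails, through which these transcripts decay, had 1 higher, 5 lower and 8 not passing of 14 (3 and 4 with trimmed mean factors). In this list 42.9% were called, less than the 52.6% over all tested genes. Zfp36l2 and Zfp36l1 fell by 0.30 and 0.17 on the log2 scale, Cnot8 fell by 0.24, and Khsrp rose by 0.37.

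Heat shock genes, which dissociation also induces, had 5 higher, 2 lower and 4 not passing of 11 tested, with a median of 0.00, and 6 higher and 2 lower with trimmed mean factors. In this list 63.6% were called, against 52.6% of all tested genes, 20.7% higher and 31.9% lower. Hspa8, a constitutive chaperone gene, stood at 2802.5 to 2923 TPM in WT and 1957 to 2002 TPM in iKO (log2 fold change -0.54). Hspb1 rose by 0.31, Hspe1 by 0.23 and Hsp90aa1 by 0.13. Hspa1a rose by 0.23 (limma adjusted p = 0.00954), with values of the groups that overlapped. Hspa1b was below the filter, at a mean of 0.305 TPM in WT and 0.724 TPM in iKO. Whether handling during dissociation differed between the groups was not stated, and its part in the result was not tested.

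**Figure D4:**
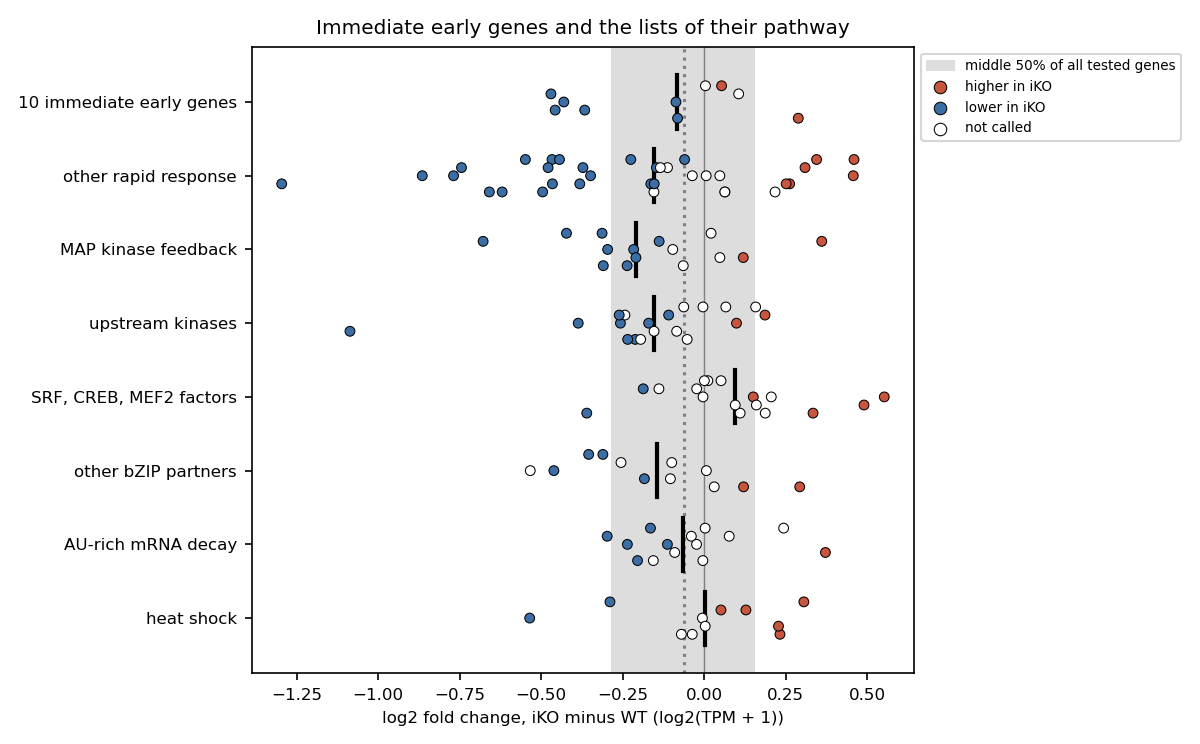
Log2 fold change of each tested gene (x axis) in the 10 immediate early genes and 7 lists of their pathway; fill gives the call, black bars the median of a list, the grey band the middle 50% of all tested genes and the dotted line their median (-0.06). Rapid response and feedback genes lie mostly to the left, and the median of the SRF, CREB and MEF2 factors lies to the right.

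Markers of several cell types differed between the same libraries. Over all tested genes 20.7% were higher and 31.9% lower. Microglia markers, from cells that induce these genes strongly when dissociated, had 9 of 12 lower and 1 higher, and summed to 780.2 to 837.5 TPM in WT against 639.6 to 665 TPM in iKO. Tmem119, P2ry12, Csf1r and C1qb fell by 0.98, 0.72, 0.57 and 0.62 on the log2 scale. Astrocyte markers had 8 of 10 lower and 1 higher, and summed to 6422 to 6622 TPM in WT against 4352 to 4541 TPM in iKO. Endothelial markers had 9 of 10 higher and 1 lower, with sums of 1187 to 1234 TPM in iKO libraries and 895.7 to 920.2 TPM in WT libraries. Blood markers had 7 of 8 higher and none lower, with WT sums of 74.0 to 85.9 TPM and iKO sums of 730.9 to 849.8 TPM. No gene of these 4 lists was at 0 in all libraries, and the part of these cells in the changes of the 10 genes was not tested.

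Neuronal markers moved too. Beside the counts that follow, 20.7% of all tested genes were higher and 31.9% lower. Neuroblast markers had 7 of 10 higher and 3 lower, with WT sums of 2122 to 2168 TPM and iKO sums of 2212 to 2286 TPM. Mature neuron markers had 5 of 11 higher and 3 lower, with WT sums of 409 to 419 TPM and iKO sums of 479 to 487 TPM. Camk2a, a kinase gene of excitatory neurons, rose by 1.71 on the log2 scale, the most of the mature neuron markers tested. The log2 fold changes of that list went down to -0.63, with a median of 0.17. Oligodendrocyte lineage markers had 3 of 8 higher and 5 lower, and pericyte markers 3 of 6 higher and 3 lower. Stem and progenitor markers had 3 of 15 higher and 6 lower, and 4 of each with trimmed mean factors. The part of these cells was likewise not tested. The mitochondrial ribosomal RNA mt-Rnr1, whose level can vary with RNA handling and library preparation, fell by 1.82 on the log2 scale, and its part in the result was not tested.

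All 4 Y-linked genes fell, summing to 135 to 162.6 TPM in WT libraries against 53.9 to 73.4 TPM in iKO libraries. Over all tested genes 31.9% were lower. Xist was higher in iKO in the authors' deposited table (log2 fold change 0.35). A sex score, the mean log2(TPM + 1) of the Y-linked genes minus that of Xist, was then used as covariate. With it Fos had a log2 fold change of -0.41 (limma adjusted p = 0.0156) and Dusp1 one of -0.32 (adjusted p = 0.0299). Fosb at -0.42 (adjusted p = 0.18), Nr4a1 at -0.35 (adjusted p = 0.173) and Atf3 at 0.53 (adjusted p = 0.432) no longer passed. Nor did Jun at -0.03 (adjusted p = 0.723), Egr1 at 0.00 (adjusted p = 0.976) and Ier2 at -0.10 (adjusted p = 0.493). Jund, not called in either fit, went from 0.11 to -0.44 (adjusted p = 0.79), and Junb was at 0.08 (adjusted p = 0.678). The score separated the groups completely, and 423 genes in all were called with it.

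**Figure D5:**
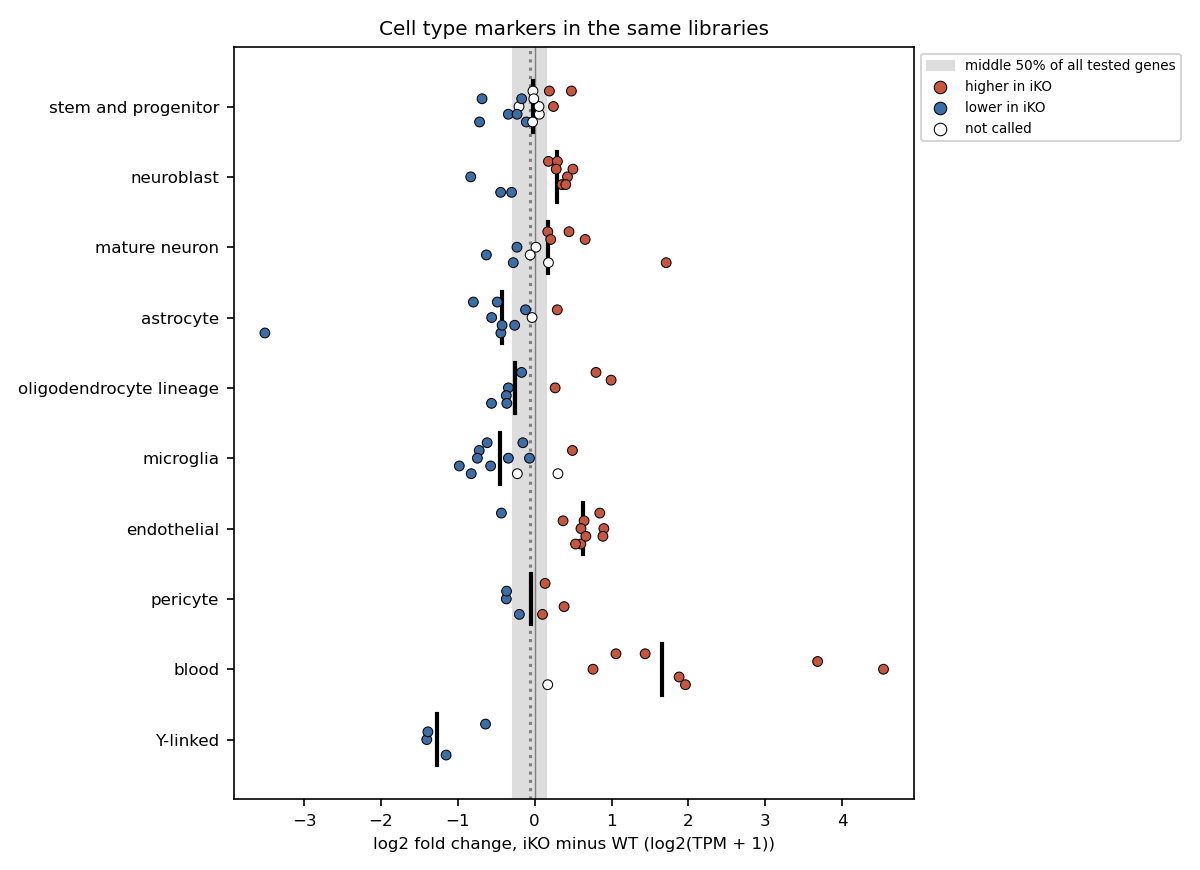
Log2 fold change of each tested marker gene (x axis) for 9 cell type lists and the 4 Y-linked genes; fill gives the call, black bars the median of a list and the grey band the middle 50% of all tested genes. Astrocyte, microglia and Y-linked genes lie mostly to the left, and endothelial and blood genes mostly to the right.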

How the data were processed

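Per the labels' protocols, Smart-Seq2 was used to amplify full-length cDNA, which was sheared and sequenced from both ends (HiSeq). The authors deposited TPM for 55385 genes, and each of the 8 columns summed to 1000000. Aligner, quantifier and build: not given in the sources used here. The authors also deposited their own comparison of iKO with WT: per the file headers its columns are mean normalized signal, log2 fold change, the fold change's error and a test score, and raw and adjusted p-values.

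Groups and replicate numbers came from the sample titles. The 16413 genes that reached 1 TPM in 4 or more libraries were tested on log2(TPM + 1). The test was limma 3.58.1 (R 4.3.3) with its trend and robust options. Fold changes are iKO minus WT on that scale, which understates changes of low genes. The script was tested on simulated data. All 10 genes passed the filter. The rule for naming genes took all 10, Ash2l, up to 4 genes of each other list with the smallest unadjusted p, and the 5 genes most like Fos. Outside this rule, and after their values were seen, the Egr, Nr4a and Fos relatives and the genes that overlap Junb, Jund and Dusp1 were named. So were Hspa1a and Hspa1b. The 10 genes and all lists were chosen with earlier results of these data known. Lists are described by counts and medians with no set test. Ddit3 had 2 rows and the one with the higher mean TPM was used, and 1 gene is not reported here.

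Alternatives were the deposited comparison, a sex score, array weights, quantile normalization, trimmed mean of M values factors, a filter of mean TPM 5 or none, pseudocounts of 5 and 0.1, each library left out and a replicate block. A loess fit (span 0.3) that removes trends with length and GC was added after seeing the data, using GENCODE M21 transcripts (99.6% of the gene IDs matched). Python 3.11.15 and matplotlib 3.10.9 drew the figures.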

Additional observations from a re-analysis of the deposited data

Results flagged for a closer look

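Within a group of 4 libraries, 7 of 186 groups of values had a library that stood apart from the other 3 by Dixon's 95% criterion. Chance alone gives about 1 in 20. Among the 10 genes only Atf3 met it: iKO replicate 2 was at 95.3 TPM, against 115 to 118 TPM in the other iKO libraries. In iKO, Ccn2 was highest in replicate 4 at 8.93 TPM (others 8.63 to 8.65), Crtc1 lowest in replicate 2 at 15.3 TPM (others 20.0 to 20.9), Slc1a3 lowest in replicate 1 at 1201 TPM (others 1248 to 1258) and Xist lowest in replicate 4 at 18.9 TPM (others 20.1). In WT, Nefl was highest in replicate 4 at 2.37 TPM (others 2.05 to 2.09) and Olig2 highest in replicate 1 at 58.6 TPM (others 52.3 to 52.6).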

How the results depend on the processing

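Of the 10 genes, 8 passed in the main comparison, and 7 or 8 under every alternative other than the sex score, which left 2, none higher and 2 lower. Fos and Dusp1 kept their direction and call in all 20 settings, at -0.56 to -0.40 and -0.44 to -0.32. Quantile normalization left 1 gene higher, and trimmed mean factors gave 3 higher and 4 lower. Junb turned to -0.075 with the length and GC trend removed. With the sex score, limma called 423 of all genes, 4 other rapid response genes, 1 feedback gene and 1 heat shock gene. It called 0 kinases (1 at an unadjusted p under 0.05), 0 SRF, CREB and MEF2 factors (2), 0 bZIP partners (1) and 0 mRNA decay genes (1). With the score, log2 fold changes reversed for Map2k1 (0.13), Atf1 (0.47), Mafg (0.13) and Hbb-bt (-0.53), where none passed. Jund, not called in either fit, turned to -0.44. The score was made from the Y-linked genes and Xist, so this fit cannot test the Y-linked genes. Of these it called 0 (1 at an unadjusted p under 0.05), and Kdm5d (0.61) and Uty (0.34) reversed. Because the score separated the groups completely, sex and genotype cannot be told apart by it. The number of factors called was 3 to 7 when a library was left out and 10 in the authors' deposited table. Trimmed mean factors moved the mean summed level of the 10 genes from 10581 to 10842 TPM in iKO and from 12952 to 12640.0 TPM in WT. The cause of these shifts was not tested. A fit with a library left out also holds fewer samples. With the replicate block, 8097 genes and 8 of the 10 changed. Same-numbered libraries did not deviate together (r -0.0445 to 0.0007), so no pairing by number was seen. Whether same-numbered libraries were prepared together cannot be told from this. TPM hold no depth; for Jund the authors' deposited table lists a mean normalized signal of 37.5 and an SE of 0.23 for the log2 fold change.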

Other observations

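The 5 genes outside the 10 whose log2(TPM + 1) was most like that of Fos over the 8 libraries were Gm37376, mt-Rnr1, the astrocyte membrane protein gene Mlc1, the mitochondrial dehydrogenase gene Idh2 and the peptide-processing carboxypeptidase gene Cpe. Their Pearson correlations with Fos were 0.9989 to 0.9993. These values share the 2 groups and the libraries, and 5.52% of the 11618 genes compared had a correlation of at least 0.98, so they describe a common split between groups. The mean of Gm37376 was 1627 TPM in WT against 702.3 TPM in iKO, and that of mt-Rnr1 809.8 against 229.3 TPM. Mlc1 averaged 1018 against 690.7 TPM, Idh2 131.9 against 63.6 TPM and Cpe 3097 against 1699 TPM. Among the 10 genes the closest to Fos were Dusp1 (0.9951) and Nr4a1 (0.9837), and Egr1 ran the other way (-0.9034).

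Within the iKO group, replicate 2 was the lowest library for 6 of the 10 genes (Fos, Jun, Junb, Ier2, Atf3 and Dusp1) and the highest for none. Within WT, replicate 4 was the lowest for 7 (Jun, Junb, Jund, Egr1, Ier2, Atf3 and Dusp1) and the highest for none. WT replicate 4 was not among the lowest for Fos, at 7418 TPM.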
